A study of Rattus norvegicus with 30 samples.

Results

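Iron handling genes of the liver were followed in cultured rat hepatocytes treated with WY-14643 (pirinixic acid), a drug-like compound that activates PPARα, a nuclear receptor of lipid metabolism. The 10 genes named were Hamp, Tf, Tfrc, Tfr2, Slc40a1, Slc11a2, Hfe, Fth1, Steap3 and Steap4, and a probe set of the Affymetrix rat array was taken as theirs if its only gene symbol was 1 of these. By this rule 8 genes had 12 probe sets, all of which passed the filter on low signals, among 14217 genes with a probe set of their own and 11545 genes tested. Both probe sets of Tf carry a second symbol, Srprb, and the probe set of Fth1 also carries Fth1-ps5, so transferrin and the ferritin heavy chain were not read. The hepatocytes came frozen from male Sprague Dawley rats, were grown on collagen under Matrigel and were dosed on day 3 of culture. The groups were 8 µM WY-14643, 200 µM WY-14643 and vehicle (labelled 1% DMSO), each harvested 24 h and 48 h after dosing, with 5 wells and 5 arrays per group and 30 arrays in all. Each well counts as a biological replicate in the labels, which do not tell whether wells hold cells of different animals, so errors and p-values measure the spread between wells. The DMSO content of the treated medium could not be fixed from the labels.

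Hepcidin, the product of Hamp, is a hormone that hepatocytes secrete, and it lowers plasma iron by binding the iron exporter ferroportin (Slc40a1) and sending it to degradation. Its transcription is raised by bone morphogenetic protein (BMP) signals through SMAD factors, by interleukin 6 through STAT3, and by sensing of transferrin that involves HFE and transferrin receptor 2 (Tfr2). Hepatocytes take up transferrin through transferrin receptor 1 (Tfrc), STEAP reductases convert the released ferric iron to ferrous iron, and divalent metal transporter 1 (Slc11a2) can carry ferrous iron across membranes.

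The promoters of Hamp, Tfrc and Steap4 are shown because they were the members whose RefSeq promoter window, 250 bases before to 50 bases after the annotated start in the build GRCr8, held a searched motif. All 3 genes lie on the minus strand, and the sequences run 5′ to 3′ along the gene. Capitals mark the BMP element GGCGCC (Hamp and Tfrc) and the STAT element, TTC and GAA with any 3 bases between (Hamp and Steap4). The stretch for Hamp runs from base -200 to base -51 at chr1:95300322-95300471, with the BMP element at -129 to -124 and the STAT element at -117 to -109.
Hamp: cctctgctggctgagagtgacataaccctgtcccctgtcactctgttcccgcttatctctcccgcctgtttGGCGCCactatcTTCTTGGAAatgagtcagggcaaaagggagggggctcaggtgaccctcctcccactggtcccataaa
The stretch for Tfrc runs from -148 to -83 at chr11:81690401-81690466, with the BMP element at -118 to -113.
Tfrc: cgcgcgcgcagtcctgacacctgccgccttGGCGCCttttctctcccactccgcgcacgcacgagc
The stretch for Steap4 runs from -106 to -18 at chr4:27054787-27054875, with the STAT element at -66 to -58.
Steap4: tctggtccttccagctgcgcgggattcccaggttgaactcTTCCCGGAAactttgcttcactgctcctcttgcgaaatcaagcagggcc
Of 33469 RefSeq promoters of the same length, searched on both strands, 11% held the BMP element and 8.87% the STAT element. A PPAR element, taken as 2 copies of AGGNCA spaced by 1 base, was present in 0.415% of them, and the E-box CACGTG was present in 6.42%. The loop CAGTGN of the iron-responsive element, searched on the sense strand in the 50 bases after the start only, was present in 7.26%. The PPAR element, the E-box and this loop were not found in any of the 9 entries of 8 members. The rest of the transcripts was not searched for the loop. Hfe and Fth1 were not matched. A match describes these letters only, and binding was not measured.

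As a check of the treatment labels, Acot1, Cyp4a1, Pdk4 and Ehhadh, known PPARα targets of fatty acid metabolism, rose in all 4 treated groups by a log2 fold change of between 3.16 and 8.69. The array of 48 h vehicle replicate 4 stood apart, with a median signal of 764.4 against 383.5 to 438.8 on the 29 others. Its median correlation with its own group was 0.896 against 0.973 to 0.980. Values of Slc40a1, Hfe and Steap3 are also given without it. Those of Tfrc and Tfr2 are given with ranges over fits that left out 1 array. Marker sums, the other iron and heme genes and the correlations between genes are given only with it. Alb, the hepatocyte marker albumin, had a mean signal of 71800. Summed over 9 measured Kupffer cell and macrophage markers, the signal was 17030 to 20220 in 8 µM wells and 17820 to 19700 in 200 µM wells at 48 h, against 22890 to 27280 in vehicle wells. At 24 h it was 24330 to 27250 at 8 µM and 23830 to 27470 at 200 µM, against 29840 to 34620 with vehicle. Cd14 and Lyz2 made up most of this sum, and Adgre1, a defining macrophage marker, was below the filter with a mean signal of 60.9. Of these 9 markers 2, 3, 2 and 5 fell (8 µM and 200 µM at 24 h, then at 48 h) and 1 rose at 8 µM and 48 h, where 13.8%, 13.1%, 18.9% and 17.1% of all genes tested fell. Summed over 6 stellate cell and fibroblast markers, the signal was 3619 to 4077 at 8 µM and 2935 to 3632 at 200 µM at 48 h, against 4108 to 6774 with vehicle, and 2869 to 3831 and 2859 to 3267 at 24 h, against 3828 to 4276. Of these 6 markers 1, 1, 2 and 4 fell, with Lrat and Pdgfrb below the filter. Of 9 hepatocyte markers 2, 1, 3 and 3 fell and 1 rose in each comparison. At 48 h their summed signal was 345900 to 399500 at 8 µM and 352800 to 391000 at 200 µM, against 330500 to 489500 with vehicle. The medians of this sum were 367100 and 383400, against 435200. At 24 h the hepatocyte sum was 413000 to 456000 at 8 µM and 429600 to 480800 at 200 µM, against 447700 to 525300 with vehicle. The part of these shifts in the results below was not tested. In such bulk samples fewer cells of a type and less RNA per cell cannot be told apart. For β-actin the ratio of 3′ to 5′ probe set signals, a sign of RNA length, was higher by 0.453 at 200 µM and 24 h, by 0.649 at 8 µM and 48 h and by 0.488 at 200 µM and 48 h (adjusted p = 0.0423 for each, two-sided exact permutation tests over 4 comparisons, n = 5), and by 0.238 at 8 µM and 24 h (adjusted p = 0.183). The part of this ratio in the results was not tested.

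Across the 8 genes, Steap4 fell in all 4 comparisons with vehicle, Slc40a1 in 3, and Hamp only at 8 µM, while Slc11a2 and Tfr2 rose and Tfrc fell at 24 h and rose at 8 µM and 48 h. A change was called at a limma adjusted p below 0.05 over 11545 genes, and log2 fold changes are of signal + 16. At 8 µM and 24 h 1 member rose and 4 fell, where 11.1% of all genes tested rose and 13.8% fell. At 200 µM and 24 h 0 rose (0 also at an unadjusted p under 0.05) and 3 fell (11.6% and 13.1% of all genes). At 8 µM and 48 h 3 rose and 3 fell (16.7% and 18.9% of all genes), and at 200 µM and 48 h 2 rose and 3 fell (16.8% and 17.1% of all genes). The median log2 fold change of the 8 members was -0.34, -0.37, -0.13 and -0.19 in this order, beside -0.03, -0.02, -0.06 and -0.05 over all genes. The median size of change, without sign, was 0.40, 0.37, 0.42 and 0.26 for the members and 0.19, 0.18, 0.25 and 0.24 for all genes. With 8 members, these shares are a description of the members and not a test of the group.

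**Figure D1:**
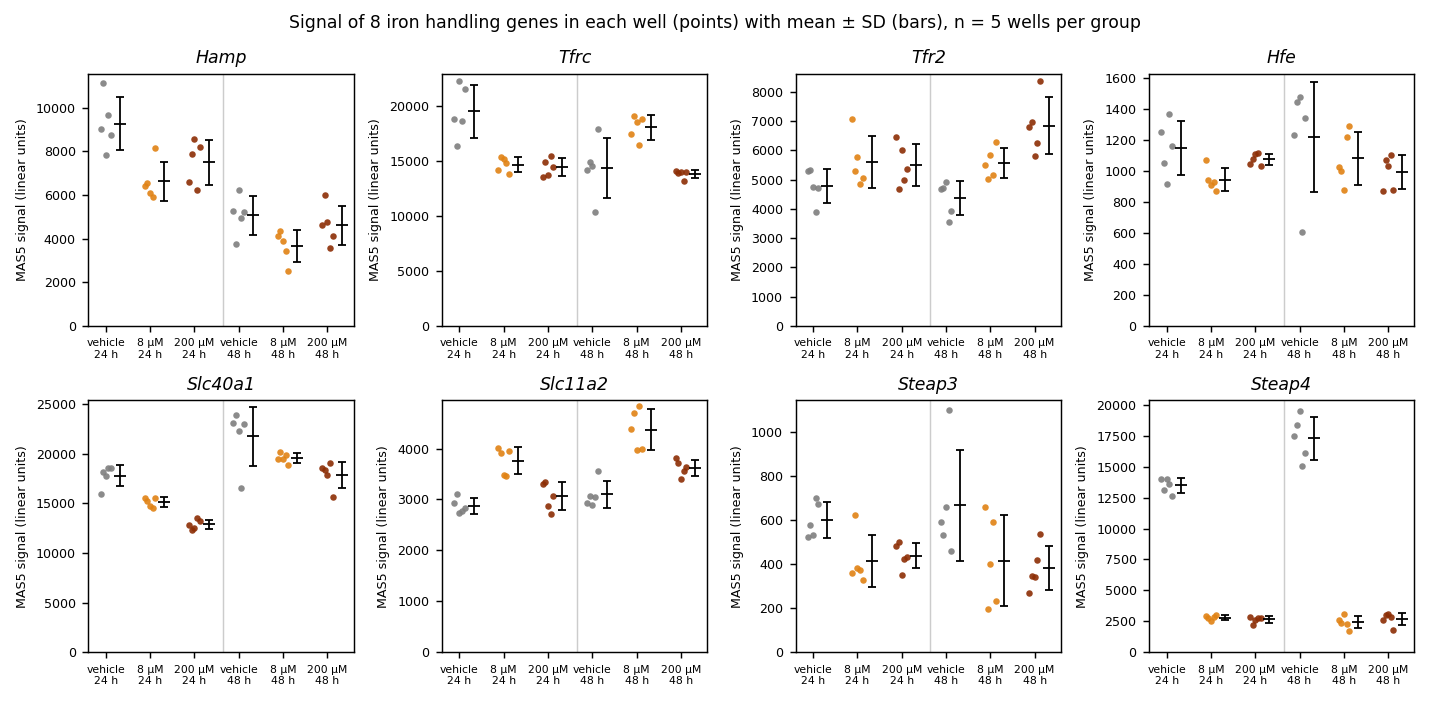
MAS5 signal (linear scale, from 0) of the 8 genes in every well, by dose and time, with the mean ± SD of n = 5 wells as bars. Steap4 is at most 3100.0 in every treated well and at least 12638 in every vehicle well, and Hamp is lower at 48 h than at 24 h with vehicle. Among vehicle wells at 48 h, replicate 4 is the lowest for Slc40a1, Hfe, Tfrc, Tfr2 and Steap4 and the highest for Steap3.

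**Figure D2:**
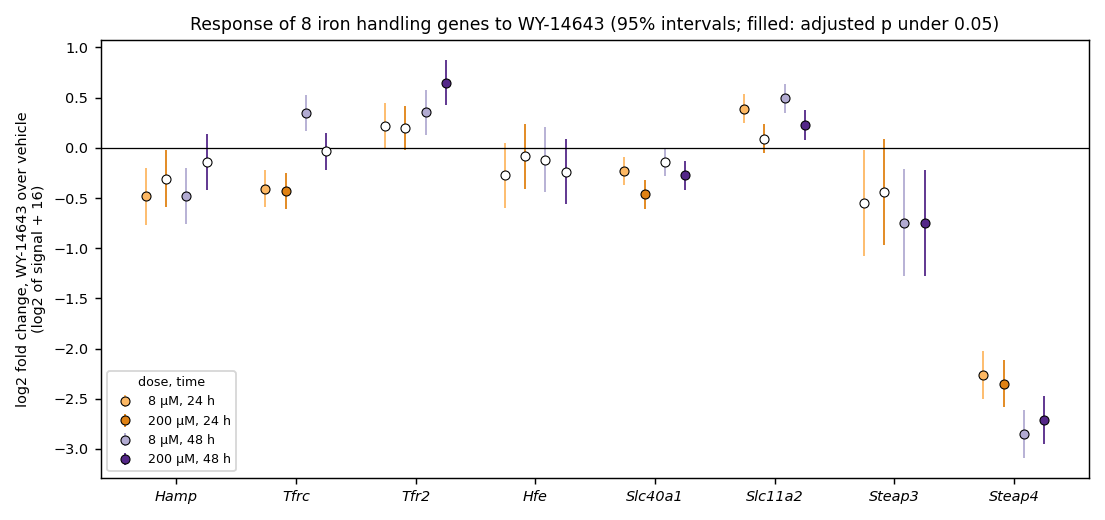
Log2 fold change of WY-14643 over vehicle for each gene, dose and time, with 95% intervals, and filled points where the adjusted p is below 0.05. Steap4 lies between -2.85 and -2.26, and the other 7 genes lie between -0.75 and 0.65.

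Hamp, the hepcidin gene, was lower with 8 µM WY-14643 at both times and lower at 48 h than at 24 h without any compound. At 24 h its signals were 7839.7, 8736, 9013, 9652 and 11118 in vehicle wells, 5924, 6109, 6407, 6560.1 and 8148 at 8 µM, and 6249.7, 6595, 7899, 8202 and 8572 at 200 µM. At 48 h they were 3734, 4939, 5231, 5255 and 6208 in vehicle wells, 2494, 3443, 3866, 4099 and 4353 at 8 µM, and 3558, 4128, 4606, 4772 and 5986 at 200 µM. At each dose the wells overlapped those of vehicle at both times, with 1 well of 8 µM at 24 h inside the vehicle range. The log2 fold change at 8 µM was -0.48 ± 0.14 (SE) at 24 h (adjusted p = 0.00822) and -0.48 ± 0.14 at 48 h (adjusted p = 0.00625). At 200 µM it was -0.31 at 24 h (adjusted p = 0.111) and -0.14 at 48 h (adjusted p = 0.479), neither past the threshold. The difference of 200 µM from 8 µM was 0.18 (95% interval -0.11 to 0.46) at 24 h and 0.34 (0.06 to 0.62) at 48 h, and neither passed (adjusted p = 0.713 and 0.194). All 5 vehicle wells at 48 h lay below all 5 at 24 h. That fall over a day of culture, -0.88 ± 0.14 (adjusted p = 3.49e-05), was exceeded in size by 1.84% of genes. The 2 calls at 8 µM ended when arrays were centred on their medians (-0.449 and -0.288, adjusted p = 0.0935 and 0.242). The call at 200 µM and 24 h was reached when only that day's arrays were fitted (adjusted p = 0.0258).

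Slc40a1, which codes for the exporter ferroportin that hepcidin removes, fell in 3 of the 4 comparisons with vehicle, with the lowest mean at 200 µM at each time. At 24 h the signals of its brightest probe set were 15985, 17756, 18126, 18562 and 18575 in vehicle wells, 14547, 14775, 15211, 15561 and 15587 at 8 µM, and 12342, 12518, 12848, 13177 and 13537 at 200 µM. The 3 groups did not overlap, in the order vehicle, 8 µM, 200 µM from high to low. At 48 h they were 16510.3, 22333, 23002, 23122 and 23896 in vehicle wells, 18862, 19479, 19498, 19844 and 20204 at 8 µM, and 15644, 17896, 18334, 18531 and 19082 at 200 µM. Here 4 of the 5 vehicle wells lay above every treated well, and the low one was replicate 4. The fall was -0.23 ± 0.07 at 8 µM and 24 h (adjusted p = 0.0124), -0.46 ± 0.07 at 200 µM and 24 h (adjusted p = 3.36e-06) and -0.27 ± 0.07 at 200 µM and 48 h (adjusted p = 0.0024). At 8 µM and 48 h the value was -0.14 (adjusted p = 0.12), and without the vehicle array that stood apart it was -0.24 (adjusted p = 1.83e-04). The step from 8 µM to 200 µM at 24 h was -0.23 (95% interval -0.38 to -0.09, adjusted p = 0.0652), and it passed without that array (adjusted p = 0.00104). In vehicle wells Slc40a1 rose by 0.28 ± 0.07 at 48 h relative to 24 h (adjusted p = 0.0082), the opposite direction to Hamp. Of the other 2 probe sets, the one of like brightness gave -0.20, -0.36, -0.20 and -0.24 for 8 µM and 200 µM at 24 h and then at 48 h, and the dim one gave -0.06, -0.49, 0.02 and -0.05. The rise over time with vehicle ended under median centring (0.14, adjusted p = 0.678) and in the fit of only the arrays compared (adjusted p = 0.198), and the other probe sets did not pass (adjusted p = 0.382 and 0.418). Median centring ended all 3 calls of treatment against vehicle (-0.199, -0.449 and -0.105, with adjusted p = 0.547, 0.0742 and 0.7). The mean of the probe sets ended that at 8 µM and 24 h (adjusted p = 0.0671).

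Tfrc, transferrin receptor 1, through which cells take up iron bound to transferrin, fell at 24 h at both doses and rose at 48 h at 8 µM, but not at 200 µM. At 24 h its signals were 16349, 18688, 18822, 21555 and 22332 in vehicle wells, 13799, 14189.6, 14794, 15173 and 15398 at 8 µM, and 13564, 13777, 14466, 14961 and 15463 at 200 µM. Every treated well lay below every vehicle well, and the 2 doses overlapped. At 48 h they were 10359, 14161, 14518, 14929 and 17914 in vehicle wells, 16436, 17438, 18532, 18817 and 19096 at 8 µM, and 13153, 13928, 13969, 13983 and 14107 at 200 µM. The 8 µM wells lay above every 200 µM well and above 4 of the 5 vehicle wells. The lowest vehicle well was replicate 4, the array that stood apart. Tfrc fell at 24 h, with log2 fold changes of -0.41 ± 0.09 at 8 µM (adjusted p = 6.04e-04) and -0.43 ± 0.09 at 200 µM (adjusted p = 3.24e-04). At 48 h it rose by 0.35 ± 0.09 at 8 µM (adjusted p = 0.00216), and at 200 µM it stood at -0.04 (95% interval -0.22 to 0.15, adjusted p = 0.809). The effect of 8 µM at 48 h minus that at 24 h was 0.76 ± 0.13 (adjusted p = 2.62e-04), and that of 200 µM was 0.39 ± 0.13 (adjusted p = 0.102). At 48 h the 200 µM wells were lower than the 8 µM wells by a log2 difference of -0.38 ± 0.09 (adjusted p = 0.00728). In vehicle wells Tfrc fell by 0.46 ± 0.09 at 48 h relative to 24 h (adjusted p = 6.41e-04), and the 48 h term of the turn is taken against that lower vehicle level. Over the 30 fits that left out 1 array, the rise at 8 µM and 48 h ran from 0.236 to 0.433. The turn at 8 µM ran from 0.642 to 0.839 and the change in vehicle wells from -0.54 to -0.343, all past the threshold. The other probe set gave a turn of 0.74 at 8 µM (adjusted p = 0.016), a rise of 0.42 at 8 µM and 48 h (adjusted p = 0.0094) and, at 24 h, -0.32 at each dose (adjusted p = 0.063 and 0.066). Median centring ended the calls at 24 h (-0.373 and -0.413, adjusted p = 0.208 and 0.15) and the turn (0.913, adjusted p = 0.142). It also ended the difference of the doses (-0.407, adjusted p = 0.62) and the fall in vehicle wells (-0.601, adjusted p = 0.0683). The falls at 24 h were slightly smaller there, and the turn, the difference of the doses and the fall in vehicle wells were larger in size. Fits of only the arrays compared ended the difference of the doses and the fall in vehicle wells (adjusted p = 0.0516 and 0.0823).

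Tfr2, transferrin receptor 2, a sensor of transferrin saturation on hepatocytes, rose at 48 h. At 48 h its signals were 3554, 3932, 4685, 4704 and 4923 in vehicle wells, 5017, 5163, 5494, 5842 and 6274 at 8 µM, and 5818, 6269, 6804, 6959.6 and 8373 at 200 µM. Every treated well lay above every vehicle well, and the doses overlapped in part. The rise was 0.36 ± 0.11 at 8 µM (adjusted p = 0.0106) and 0.65 ± 0.11 at 200 µM (adjusted p = 1.41e-05), and the step between doses was 0.29 (95% interval 0.07 to 0.52, adjusted p = 0.139). At 24 h its signals ran from 3877 to 5325 in vehicle wells, from 4843 to 7072 at 8 µM and from 4688 to 6449 at 200 µM, and all 3 ranges overlapped. The log2 fold changes there were 0.22 (adjusted p = 0.156) and 0.20 (adjusted p = 0.215), and the change between times was not past the threshold at 8 µM (0.14, adjusted p = 0.747) or at 200 µM (0.45, adjusted p = 0.141). Array weights ended the call at 8 µM (0.25, adjusted p = 0.0609). The lowest vehicle well at 48 h was replicate 4, the array that stood apart. Over the 30 fits that left out 1 array, the rises at 48 h were 0.285 to 0.402 at 8 µM and 0.574 to 0.705 at 200 µM.

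Hfe codes for a membrane protein that acts with transferrin receptors in the control of hepcidin, and it was called in 0 of the 9 comparisons by limma, with 0 at an unadjusted p under 0.05. At 48 h its signals were 606, 1229, 1341, 1443 and 1476 in vehicle wells, 873, 997, 1024, 1216 and 1291 at 8 µM, and 872, 876, 1031, 1069 and 1104 at 200 µM. The 4 upper vehicle wells lay above every 200 µM well, and the lowest value of all was replicate 4 of vehicle. With that array the log2 fold change was -0.12 at 8 µM (adjusted p = 0.596) and -0.24 at 200 µM (adjusted p = 0.271). Without it Hfe was at -0.35 (adjusted p = 0.0121) and -0.47 (adjusted p = 0.00105). At 24 h the signals were 868 to 1067 at 8 µM, against 914 to 1367 with vehicle, and the log2 fold change of -0.27 (adjusted p = 0.242) passed without the same 48 h array (adjusted p = 0.0461). At 200 µM and 24 h it was -0.08 (adjusted p = 0.789).

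Slc11a2, divalent metal transporter 1, rose in 3 of the 4 comparisons with vehicle, and by its brightest probe set more so at 8 µM than at 200 µM. At 24 h the signals of its brightest probe set were 2728, 2766, 2835, 2927 and 3101 in vehicle wells, 3461, 3477, 3921, 3961 and 4002 at 8 µM, and 2719.5, 2878, 3073, 3313 and 3352 at 200 µM. At 48 h they were 2899, 2936, 3047, 3062 and 3553 in vehicle wells, 3972, 3985, 4378, 4695 and 4839 at 8 µM, and 3396, 3551, 3647, 3713 and 3811 at 200 µM. At both times every 8 µM well lay above every well of the other groups, and at 48 h the 200 µM wells lay above 4 of the 5 vehicle wells. The rise at 8 µM was 0.39 ± 0.07 at 24 h (adjusted p = 6.12e-05) and 0.49 ± 0.07 at 48 h (adjusted p = 8.92e-07). At 200 µM it was 0.09 (adjusted p = 0.413) at 24 h and a rise of 0.23 ± 0.07 (adjusted p = 0.0123) at 48 h. The 200 µM wells were below the 8 µM wells by -0.30 ± 0.07 at 24 h (adjusted p = 0.0128) and -0.27 ± 0.07 at 48 h (adjusted p = 0.0215). The other probe set did not show this difference of the doses, with 0.05 at 24 h (95% interval -0.21 to 0.30) and 0.02 at 48 h (-0.23 to 0.28). Against vehicle it gave 0.13 and 0.18 at 24 h, neither past the threshold (adjusted p = 0.556 and 0.384). At 48 h it gave 0.34 and 0.36 (adjusted p = 0.0387 and 0.0278). The difference of the doses also ended under median centring (-0.314 and -0.291, adjusted p = 0.654 and 0.647). With the mean of both probe sets it ended as well (-0.125 and -0.121, adjusted p = 0.608 and 0.56).

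**Figure D3:**
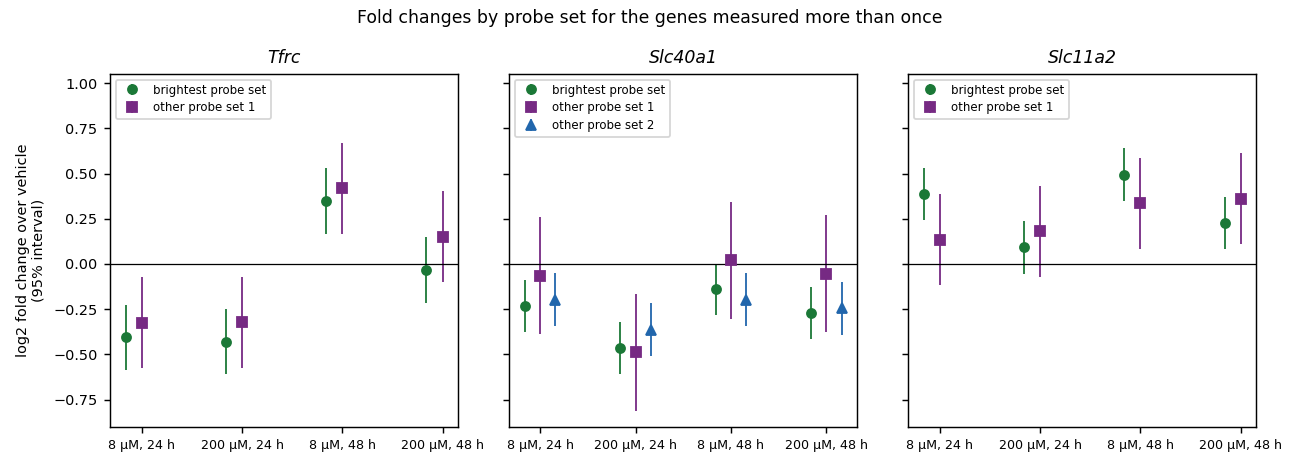
Log2 fold change over vehicle, with 95% intervals, by probe set for the 3 genes with more than 1. The probe sets of Tfrc share the turn between 24 h and 48 h, whereas those of Slc11a2 differ in how the 2 doses compare.

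Steap4, a metalloreductase of the STEAP family that reduces iron and copper and is known to respond to inflammatory signals and feeding in fat and liver, had the largest changes of the 8 members in every comparison with vehicle. At 24 h its signals were 12638, 13144, 13634, 14024 and 14032 in vehicle wells, 2523, 2731, 2852, 2926 and 2982 at 8 µM, and 2214, 2627, 2749, 2773 and 2858 at 200 µM. At 48 h they were 15096, 16134, 17490.5, 18349.8 and 19482 in vehicle wells, 1708, 2295, 2385, 2639 and 3066 at 8 µM, and 1834, 2584, 2808, 2986 and 3100.0 at 200 µM. Every treated well lay below every vehicle well, and the 2 doses overlapped at both times. At 24 h the log2 fold change of Steap4 was -2.26 ± 0.12 at 8 µM (4.8-fold lower, adjusted p = 5.03e-17) and -2.35 ± 0.12 at 200 µM (5.09-fold lower, adjusted p = 2.83e-17). At 48 h it was -2.85 ± 0.12 at 8 µM (7.22-fold lower, adjusted p = 7.19e-20) and -2.71 ± 0.12 at 200 µM (6.55-fold lower, adjusted p = 3.97e-19). Between 0.243% and 0.372% of the genes tested had a larger change in these 4 comparisons. The 200 µM wells differed from the 8 µM wells by -0.09 (95% interval -0.32 to 0.15) at 24 h and 0.14 (-0.10 to 0.38) at 48 h. In vehicle wells Steap4 rose by 0.35 ± 0.12 at 48 h relative to 24 h (adjusted p = 0.0486), with all 5 wells above those of 24 h. The 8 µM effect was more negative at 48 h by -0.59 ± 0.17 (adjusted p = 0.0435). Both of these calls lie close to the threshold: the rise with vehicle passed in 7 of 30 fits that left out 1 array, and the change of the 8 µM effect in 13 of 30. The 4 falls against vehicle passed in all 30 of those fits and all 10 other alternatives.

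Steap3, the ferrireductase of endosomes that acts on iron released from transferrin, was dim and its wells were spread. At 48 h its signals were 459.7, 531, 591, 661 and 1099 in vehicle wells, 195, 234, 399, 593 and 662 at 8 µM, and 268, 342, 348, 417 and 536 at 200 µM. The treated and vehicle wells overlapped, and the highest value was the vehicle array that stood apart. Steap3 fell by 0.75 ± 0.26 at 200 µM (adjusted p = 0.0242), and the fall at 8 µM was of the same size, -0.74 ± 0.26 (adjusted p = 0.0243). Without that array neither passed (-0.56, adjusted p = 0.0879 at 200 µM, and -0.55, adjusted p = 0.0901 at 8 µM). At 24 h the signals were 328 to 623 at 8 µM and 352 to 501 at 200 µM, against 525 to 700.2 with vehicle. The log2 fold changes of -0.55 (adjusted p = 0.133) and -0.44 (adjusted p = 0.253) did not pass, and that at 8 µM passed in the fit of only the arrays compared (adjusted p = 0.0194). In that fit and under median centring both calls at 48 h ended (adjusted p = 0.0846 and 0.0847 at 8 µM, and 0.0855 and 0.0712 at 200 µM), and at 8 µM also with quantile normalization and array weights (adjusted p = 0.0534 and 0.0714).

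Between the doses, 0 members rose and 1 fell at 24 h (1.39% and 1.63% of all genes rose and fell), and 0 rose and 2 fell at 48 h (2.26% and 2.53% of all genes), with 200 µM set over 8 µM. These were Slc11a2 at both times and Tfrc at 48 h, and at an unadjusted p under 0.05 0 members were higher at 24 h and 2, Hamp and Tfr2, at 48 h. The 8 µM effect changed between the times for Tfrc upward and Steap4 downward (1.67% and 1.23% of all genes). The 200 µM effect changed for 0 members by limma (1.3% and 1.11% of all genes), with Tfrc and Tfr2 upward and Steap4 downward at an unadjusted p under 0.05. With vehicle alone, 2 members rose and 2 fell at 48 h against 24 h (4.46% and 5.4% of all genes), namely Slc40a1 and Steap4 upward and Hamp and Tfrc downward. The comparisons with vehicle at 1 time share their vehicle wells, so the likeness of the 2 doses is given by the side by side values above and not by a correlation.

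Other genes of iron and heme metabolism were taken from 5 lists with 81 measured genes. Of these, 15 rose and 13 fell at 8 µM and 24 h, 19 and 11 at 200 µM and 24 h, 22 and 12 at 8 µM and 48 h, and 26 and 14 at 200 µM and 48 h. Over all genes tested, 11.1%, 11.6%, 16.7% and 16.8% rose and 13.8%, 13.1%, 18.9% and 17.1% fell in the same order. The list genes' median log2 fold change was -0.03, 0.00, 0.01 and 0.06, beside -0.03, -0.02, -0.06 and -0.05 for all genes.

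Among 26 genes that regulate hepcidin, 3, 4, 3 and 4 rose and 4, 5, 7 and 8 fell (8 µM and 200 µM at 24 h, then at 48 h), with medians of -0.17, -0.13, -0.21 and -0.20. Over all genes 11.1%, 11.6%, 16.7% and 16.8% rose and 13.8%, 13.1%, 18.9% and 17.1% fell. The counts of rises are near or below these shares in all 4 comparisons, and that of falls is near its share at 8 µM and 24 h. Among those that fell were 3 genes of interleukin 6 signalling, while Socs3, a feedback inhibitor of it that was named after its values were seen, was not called in any of the 4 comparisons (adjusted p = 0.474 to 0.918) and Jak2 was below the filter. Il6r, the receptor, fell to a signal of 1089.4 ± 162 at 8 µM and 24 h, against 2498.5 ± 286 with vehicle (SD, n = 5), a log2 fold change of -1.19 ± 0.11 (adjusted p = 5.98e-11), with -1.35, -0.89 and -0.76 in the other comparisons. Il6st, its signalling partner, stood at -0.83, -0.92, -0.41 and -0.69, and its 3 other probe sets also fell in all 4 comparisons. Stat3, the transcription factor of that pathway, stood at -0.73, -0.68, -0.74 and -0.65, and its other probe set fell in all 4 as well. In the BMP arm the directions were mixed. Id1, a target of BMP and SMAD signals, rose by 1.38 ± 0.08, 0.93, 1.08 and 0.83, and Hjv, the BMP co-receptor hemojuvelin, rose by 0.37, 0.40, 0.73 and 0.69. Smad1, a transducer of BMP signals, fell (-0.46, -0.47, -0.59 and -0.55) by its brightest probe set, and its other probe set did not pass in any comparison. Acvr1, a BMP type I receptor, fell at 48 h (-0.45 and -0.69). Creb3l3, a membrane-bound hepatocyte factor known to act on hepcidin in the mouse and also known as a PPARα target, had a signal of 25825 ± 1457 at 8 µM and 24 h, against 7782.2 ± 663.9 with vehicle. Its rises were 1.73, 1.47, 1.85 and 1.63. Gdf15, a secreted TGF-β family member, rose at 200 µM and 24 h by 0.61.

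Of 6 genes of ferritin, its turnover and control through iron-responsive elements, 2 rose in each comparison. In the order used above, 1, 1, 0 and 1 fell. Over all genes 11.1%, 11.6%, 16.7% and 16.8% rose and 13.8%, 13.1%, 18.9% and 17.1% fell. With 6 genes these counts are only a description. Both genes that rose were RNA-binding regulators of ferritin and Tfrc transcripts. Aco1, which is cytosolic aconitase when it holds an iron-sulfur cluster and iron regulatory protein 1 when it does not, had signals of 19849 ± 1243 at 200 µM and 48 h, against 7582.3 ± 1270 with vehicle. Its rises were 0.93, 1.03, 1.28 and 1.40. Ireb2, iron regulatory protein 2, rose by 0.62, 0.54, 0.82 and 0.44. Ncoa4, the receptor that takes ferritin to lysosomes, fell at 24 h (-0.21 and -0.28), and Pcbp1, an iron chaperone for ferritin, fell at 200 µM and 48 h (-0.23).

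Of 15 genes of other iron transport, reduction and oxidation, 2 rose in each comparison and 4, 3, 3 and 3 fell (8 µM and 200 µM at 24 h, then at 48 h). Over all genes 11.1%, 11.6%, 16.7% and 16.8% rose and 13.8%, 13.1%, 18.9% and 17.1% fell. The counts of rises are near these shares, as are those of falls at 48 h. Slc39a14 (ZIP14), which brings iron that is not bound to transferrin into hepatocytes, stood at -0.89 ± 0.10, -0.80, -0.86 and -0.68, and its other probe set passed in 2 of the 4 comparisons. Slc39a8 (ZIP8), a related carrier, fell (-0.52, -0.47, -0.67 and -0.56). Cp, the plasma ferroxidase ceruloplasmin that helps load iron onto transferrin, had a signal of 5000.0 ± 664.6 at 8 µM and 48 h, against 13706 ± 1827 with vehicle. Its log2 fold changes were -0.60, -0.51, -1.45 and -1.08, and of its other 2 probe sets 1 fell in all 4 comparisons and the other only at 8 µM and 48 h. Lrp1, which takes up hemopexin with its heme, rose by 0.83, 0.70, 0.90 and 0.80 by its brightest probe set, while its other probe set did not pass. Mon1a, a trafficking protein known to act on ferroportin in the mouse, rose by 0.43, 0.38, 0.39 and 0.53.

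Of 16 genes of mitochondrial iron and iron-sulfur clusters, 6, 7, 7 and 10 rose and 1, 0, 1 and 1 fell, with medians of 0.13, 0.20, 0.20 and 0.31. Over all genes 11.1%, 11.6%, 16.7% and 16.8% rose and 13.8%, 13.1%, 18.9% and 17.1% fell, and the counts of falls are below these shares. Glrx5, a glutaredoxin that passes clusters on, rose by 0.54, 0.38, 0.61 and 0.40. Ciapin1, of the cytosolic assembly route, rose by 0.43, 0.45, 0.56 and 0.69, and Hscb, a co-chaperone, by 0.43, 0.31, 0.57 and 0.46. Isca1 rose by 0.27, 0.38, 0.53 and 0.56, and Fdx1, a ferredoxin, by 0.40, 0.44, 0.37 and 0.34. The other probe set of Isca1 passed only at 200 µM and 48 h (0.24), and that of Fdx1 at 48 h (0.47 and 0.70) but not at 24 h (adjusted p = 0.0506 and 0.19). Isca2 rose at 8 µM and 24 h by 0.67 (adjusted p = 0.0392). The member that fell was Slc25a28 (mitoferrin 2), an iron carrier of the inner membrane, at -0.33, -0.43 and -0.39 in the comparisons other than 200 µM and 24 h (-0.19, adjusted p = 0.218).

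Of 18 heme genes, 2 and 4 rose at 24 h and 8 and 8 at 48 h, and 3, 2, 1 and 1 fell. Over all genes 11.1%, 11.6%, 16.7% and 16.8% rose and 13.8%, 13.1%, 18.9% and 17.1% fell in the same order. The count of rises at 8 µM and 24 h is at its share, and the counts of falls are near or below theirs. Alas1, the first and rate-limiting enzyme of heme synthesis in liver, fell at 8 µM and 24 h to 6604.8 ± 507.3, against 7858.5 ± 952.1 with vehicle (-0.24 ± 0.08, adjusted p = 0.0291), and rose by 0.23 at 200 µM and 24 h. At 48 h it rose by 0.54 ± 0.08 at 8 µM and 0.74 ± 0.08 at 200 µM. Alad, the next enzyme, rose by 0.60, 0.29, 0.43 and 0.28, and Cpox, a later one, fell at 24 h (-0.52 and -0.37). Hmox1, the inducible heme oxygenase, fell at 200 µM and 24 h (-0.34) and rose at 48 h by 0.51 at 8 µM and 0.30 at 200 µM. Hmox2, the constitutive form, rose by 0.30, 0.30 and 0.26 in the comparisons other than 8 µM and 24 h. Abcg2, an exporter of porphyrins, rose by 0.57, 0.53, 0.81 and 0.69. Abcb6, a porphyrin transporter, fell at 8 µM and 24 h (-0.37) and rose by 0.45 at 200 µM and 48 h. Flvcr2, at low signal, fell at 48 h (-1.62 and -1.24).

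**Figure D4:**
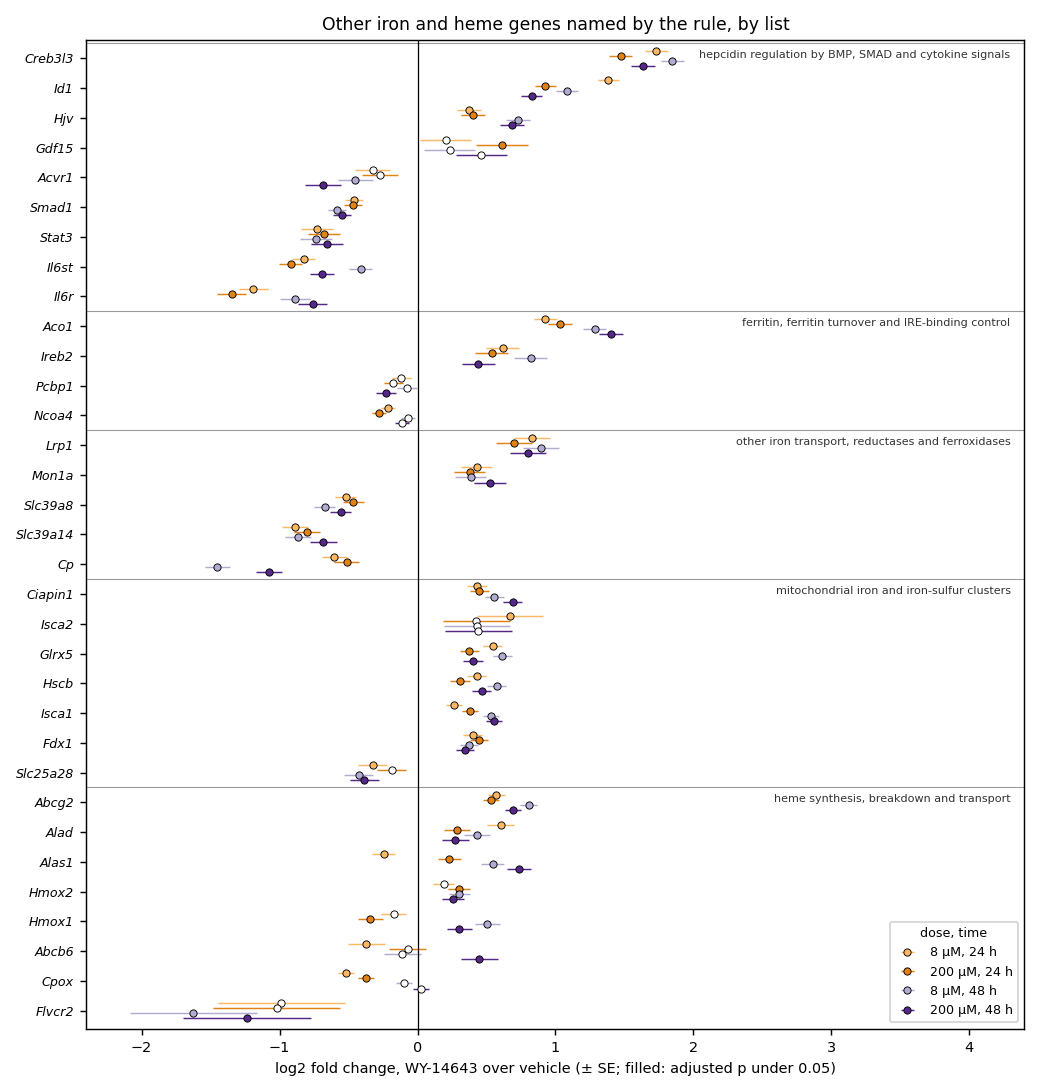
Log2 fold change ± SE of WY-14643 over vehicle for the other iron and heme genes named in the text, grouped by list, with filled points where the adjusted p is below 0.05. Il6r, Il6st and Stat3 lie left of 0 and Creb3l3, Id1, Aco1 and Ireb2 right of 0 in all 4 comparisons, and Alas1 and Hmox1 lie on either side.

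The genes with the most similar pattern to each member were taken as the 3 with the highest Pearson correlation of log2 signal over the 30 arrays, which share the 6 groups. Within groups, after each group's mean was removed, most of these correlations were lower. For Steap4 they were Rab11fip5 (0.98, and 0.40 within groups), Ccn2 (0.98 and 0.32) and Lurap1l (0.98 and 0.55). For Hamp they were C9 (0.89 and 0.36), a complement component, Saa3 (0.89 and 0.54), an acute phase protein, and Cyp2c7 (0.86 and 0.31). For Slc40a1 they were Nt5c2 (0.95 and 0.77), Sdc1 (0.94 and 0.55) and Tpm1 (0.93 and 0.74), and for Tfrc Cdo1 (0.83 and 0.72), Acsm1 (0.81 and 0.70) and Vdac1 (0.80 and 0.75). For Slc11a2 they were Cyp17a1 (0.88 and -0.05), Enpp5 (0.87 and 0.46) and Spmip11 (0.87 and 0.07). For Tfr2 they were Nudt6 (0.83 and 0.65), Lrpprc (0.78 and 0.51) and Psmd11 (0.78 and 0.41). For Hfe they were Dhx32 (0.83 and 0.82), Mtfmt (0.78 and 0.77) and Gpx7 (0.76 and 0.76), and for Steap3 Scnn1b (0.78 and 0.65), Kcnip3 (0.77 and 0.60) and Hcn2 (0.74 and 0.67). These are descriptions of 30 arrays, with no test. Both kinds of correlation include 48 h vehicle replicate 4, the array that stood apart. In its group that array was the lowest for Slc40a1, Hfe, Tfrc, Tfr2 and Steap4 and the highest for Steap3. How far the correlations within groups rest on that array was not tested.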

How the data were processed

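RNA of 30 wells in 6 groups was read on an Affymetrix rat array. The deposited values are intensity values of probe sets, made by the authors with MAS5 per the submitters' processing notes, version not given in the sources used here. Trimmed means of 1500.45 to 1500.70 on every array show that the values had been scaled, and no scaling was added. Gene symbols came from the platform annotation of 2016. Probe sets needed signals over 281.361, the 40th percentile of the whole table, on 5 or more arrays, and the brightest kept probe set by mean log2 signal stood for its gene. All arrays were fitted together, as log2(signal + 16), in limma 3.58.1 (R 4.3.3) with 1 mean per group and a variance trend. Tests were two-sided and adjusted by Benjamini-Hochberg over 11545 genes in each of 9 contrasts. The number of arrays limits the precision.

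The members and the gene lists were chosen with earlier results of these data known. Every member was named. From each list and each comparison with vehicle, the 3 called genes with the largest rise and the 3 with the largest fall could be named. Alternatives were leaving out each array, array weights, fits of only the arrays compared, a block per run of 6 arrays, the mean of probe sets, median centring, quantile normalization, a 60th percentile filter or none, and pseudocounts of 1 and 64. Replicate numbers were given in accession order, and each number also marks 1 run of 6 consecutive arrays with 1 array per group, which the labels do not call a shared batch or culture. Promoters were matched by symbol in RefSeq's table (GRCr8) for 8 of 10 members.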

Additional observations from a re-analysis of the deposited data

Results flagged for a closer look

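In groups of 5 wells the highest and lowest signals of the 8 genes were checked for a large gap to the nearest other well, in 48 groups. Chance flags about 1 in 20 groups, and 5 were found. In 48 h vehicle wells replicate 4 was far below the others for Slc40a1 (16510.3) and for Hfe (605.98), and this is the array that stands apart as a whole. Also in 48 h vehicle wells, replicate 5 was far above the others for Slc11a2 (3553.45). For Tfrc the 48 h 200 µM replicate 4 was far below the others (13153.3), and for Steap3 the 24 h 8 µM replicate 2 was far above them (622.989).

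The effect of 8 µM differed between the 2 times for 2 genes by the interaction contrast in limma. For Tfrc the log2 effect at 48 h minus that at 24 h was 0.755 (adjusted p = 2.62e-04), and it stayed past the threshold in all 30 fits that left out 1 array. For Steap4 it was -0.589 (adjusted p = 0.0435), and it passed in 13 of those 30 fits.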

How the results depend on the processing

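No member's called direction reversed under any of 40 alternatives. Of 28 calls of members over the 9 comparisons, 22 passed in all 30 fits that left out 1 array and 10 in every alternative. These 10 were the 4 falls of Steap4, the rises of Slc11a2 at 8 µM at both times and at 200 µM and 48 h, those of Tfrc at 8 µM and 48 h and of Tfr2 at 200 µM and 48 h, and the fall of Hamp in vehicle wells. Apart from fits that left out 1 array, any other alternative ended at most 6 calls, whereas median centring ended 17. It moved the median log2 fold change of all genes to 0.13 (8 µM) and 0.12 (200 µM) at 48 h, against -0.06 and -0.05 as deposited. At 24 h it moved this median to 0.004 and -0.002, against -0.03 and -0.02. The vehicle array that stands apart has a median signal of 764.4, and its part in these moves was not tested. A block for each run of 6 arrays ended no member's call.

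Under median centring 2 members were called at 8 µM and 24 h, 1 at 200 µM and 24 h, 3 at 200 µM and 48 h, 1 over time with vehicle, and 0 between doses at either time and 0 for the change of the 8 µM effect. The counts of all genes were then 1462 and 1355 at 24 h (2870 and 2853 in the reported fit), 39 and 96 between doses (349 and 553), 42 and 28 for the change of the 8 µM and 200 µM effects (335 and 278) and 300 with vehicle (1139). Fits of only the arrays compared called 2 members between doses at 24 h, 0 at 48 h and 2 with vehicle, and 594, 263, 205, 176 and 342 genes between doses, for the changes of effect and with vehicle. Array weights called 2 members between doses at 24 h and 1 for the change of the 200 µM effect, and 750, 1146, 596 and 528 genes. Quantile normalization called 2 and 1 members there, and 541 and 450 genes for the changes of effect. The mean of probe sets left 1 member between doses at 48 h, and no filter left 1 for the change of the 8 µM effect. The cause of these moves was not tested.

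Leaving out 1 array gave 0 to 2 members between doses at 24 h, 1 to 2 at 48 h, 1 to 2 for the change of the 8 µM effect and 0 to 1 for that of the 200 µM effect. The counts of all genes ran from 244 to 676, 398 to 1037, 250 to 582 and 199 to 488, and each highest count was without 48 h vehicle replicate 4. The calls of Slc11a2 between doses ended without 200 µM replicate 4 at 24 h (adjusted p = 0.0605), and at 48 h without 8 µM replicate 2 or 4 (adjusted p = 0.0761 and 0.0795) or 200 µM replicate 3 or 4 (adjusted p = 0.0722 and 0.0526). Those of Steap3 at 48 h also ended without 8 µM replicate 2 or 5 (adjusted p = 0.115 and 0.0933) and without 200 µM replicate 1 (adjusted p = 0.0781). The step of Slc40a1 between doses at 24 h also passed without 48 h 200 µM replicate 5 (adjusted p = 0.0498). The change of the 200 µM effect on Tfrc passed without 24 h vehicle replicate 2 (adjusted p = 0.0444) or 48 h vehicle replicate 5 (adjusted p = 0.0175).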
